A study of Saccharomyces cerevisiae with 44 samples.

Results

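The genes described here encode 10 proteins that set up and use the site of polarized growth from which the mating projection of budding yeast forms. They were chosen by name from the 7127 features of the count table: the GTPase CDC42 (YLR229C), its activator CDC24 (YAL041W), the scaffold BEM1 (YBR200W), the GTPase inhibitor RDI1 (YDL135C), the effector GIC2 (YDR309C), the bud-site GTPase RSR1 (YGR152C), and the polarisome genes BNI1 (YNL271C), SPA2 (YLL021W), PEA2 (YER149C) and BUD6 (YLR319C). All 10 passed the filter on low counts in every comparison. When a haploid a cell senses alpha-factor, the receptor-coupled G protein recruits Cdc24 through Far1, and Cdc24 loads Cdc42 with GTP at one place on the cortex. Active Cdc42 then works through effectors and through the polarisome, whose formin Bni1 builds the actin cables along which secretory vesicles reach the growing tip. Gic2 binds active Cdc42 through a CRIB motif, Bem1 holds Cdc24 and Cdc42-dependent kinases together, and Rdi1 takes Cdc42 off membranes. Rsr1 passes the position of the bud-site landmarks to Cdc24. Spa2 is the polarisome's scaffold, Pea2 binds Spa2, and Bud6 helps Bni1 nucleate actin.

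RNA was sequenced from the wild-type strain VM05 (WT) and from strains with kar4::KanMX (ACY01), ste12::KanMX (ACY02) or ime4::KanMX (ACY13), written kar4Δ, ste12Δ and ime4Δ below. Ste12 is the transcription factor of the pheromone response, Kar4 is its partner at a subset of genes, and Ime4 is an mRNA methyltransferase. All strains, WT included, were MATa and shared the alleles ade1, bar1, his2, trp1 and ura3 together with cln1, cln2, cln3 and the construct leu2:LEU2::GAL-CLN3, so every group was an a cell that depends on galactose for its G1 cyclin. Cultures grown at 30 °C were moved to glucose for 3 h to arrest in G1, and were then frozen (0 h) or given 20 µM alpha-factor for 60 min. Batches 1 and 2 each supplied 2 of the 4 libraries at 0 h and 2 of the 4 treated libraries of WT, kar4Δ and ste12Δ; replicates 1 and 2 belong to batch 1. Batch 3 held WT and ime4Δ, each with 4 untreated and 4 treated columns of counts. These were averaged in pairs, as described below, to 2 libraries untreated and 2 treated for each strain. The titles of batch 3 give no time. Batch 4 held WT with 2 treated libraries and 2 untreated libraries that waited 60 min without alpha-factor. Each deletion strain carries 1 strain name, so a strain and its deletion cannot be told apart. Nothing in the labels says that replicates came from separate cultures, so p-values measure the spread between these libraries, which may be technical.

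Libraries held 4.25 M to 22.6 M counts (M for mega). The deleted genes matched the labels: KAR4 had 0 CPM (counts per M counts) in kar4Δ at 0 h, STE12 had 0.27 to 6.3 CPM in ste12Δ against 177 to 339 CPM in WT of batches 1 and 2, and IME4 had at most 0.59 CPM in ime4Δ. CLN1 and CLN2 still had 64.2 to 243.5 CPM and 117.7 to 290.4 CPM over the groups, although the genotype lists cln1 and cln2; the labels do not say which bases those alleles lack. The 5 a-cell markers (STE2, MFA1, MFA2, STE6 and ASG7) summed to 3123 to 5379 CPM in WT of batches 1 and 2 and to 497 to 834 CPM in ste12Δ. The 4 alpha-cell markers summed to 171 to 389 CPM in the same WT libraries. In kar4Δ they summed to 501 to 691 CPM at 0 h and 3257 to 3592 CPM after alpha-factor. The 5 a-cell markers in kar4Δ summed to 3368 to 5007 CPM at 0 h and 3874 to 4799 CPM after alpha-factor. The 10 S and M phase markers summed to 625 to 727 CPM in WT at 0 h and 341 to 427 CPM after alpha-factor, but to 518 to 688 CPM in treated kar4Δ and 571 to 820 CPM in treated ste12Δ. Their part in the results below was not tested. In bulk RNA, fewer cells of a type and less RNA per cell cannot be told apart.

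The promoters of 3 genes are shown because RDI1 and GIC2 carried the largest alpha-factor responses of the set and CDC42 is the GTPase at its centre. They come from the RefSeq R64 genome, are read on the gene's strand, and have searched motifs in capitals: TGAAAC or TGAAACA, the core of the pheromone response element that Ste12 binds, and TTTCGCG, the reverse complement of the SBF core CGCGAAA. The windows of RDI1 (chrIV:219239-219538, minus strand) and GIC2 (chrIV:1080150-1080449, minus strand) start 250 bases before the start codon and end 50 bases into the coding sequence. That of CDC42 (chrXII:604838-605137, minus strand) starts 350 bases before the start codon so as to show its match.
RDI1: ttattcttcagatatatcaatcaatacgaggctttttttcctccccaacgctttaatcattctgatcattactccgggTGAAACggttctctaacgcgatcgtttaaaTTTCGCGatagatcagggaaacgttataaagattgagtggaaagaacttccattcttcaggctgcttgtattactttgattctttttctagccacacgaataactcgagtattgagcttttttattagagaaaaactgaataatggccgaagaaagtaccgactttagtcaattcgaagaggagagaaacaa
GIC2: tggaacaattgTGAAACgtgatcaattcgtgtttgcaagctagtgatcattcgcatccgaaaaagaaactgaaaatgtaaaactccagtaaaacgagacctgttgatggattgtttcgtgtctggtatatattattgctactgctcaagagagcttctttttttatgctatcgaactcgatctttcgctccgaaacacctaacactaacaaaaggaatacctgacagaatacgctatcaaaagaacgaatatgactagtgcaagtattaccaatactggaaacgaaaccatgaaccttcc
CDC42: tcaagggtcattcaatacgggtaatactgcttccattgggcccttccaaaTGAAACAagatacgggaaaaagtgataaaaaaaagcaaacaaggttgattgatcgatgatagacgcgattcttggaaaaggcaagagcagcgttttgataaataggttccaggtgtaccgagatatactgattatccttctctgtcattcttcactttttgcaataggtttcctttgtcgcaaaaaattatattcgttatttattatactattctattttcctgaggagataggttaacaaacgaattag
Searched on both strands were the pheromone response element TGAAACA, the SBF core CGCGAAA, the MBF site ACGCGT and the Tec1 site CATTCC. The shorter TGAAAC, part of every full element, was added after the sequences had been seen. TGAAACA was in 0 of the 10 promoters between 250 bases before and 50 after the start, where 7.48% of 6020 genes hold it. Within 500 bases before the start it was in CDC42 alone, at 300 bases, where 12% of 6019 genes hold it. TGAAAC was in 3 of the 10 shorter windows (RDI1 at 172 bases before the start, GIC2 at 239 and PEA2 at 7), against 19.9% of genes. CGCGAAA was in the shorter window of RDI1 alone, at 142 bases (3.59% of genes), and within 500 bases also in RSR1 at 257 (5.8%). ACGCGT was in the shorter window of SPA2 alone, at 239 bases (3.06%), and within 500 bases also in GIC2 at 389 (5.4%). CATTCC was in none of the shorter windows (10.9%) and within 500 bases in GIC2 alone, at 358 (17.8%). These matches are descriptions of the letters.

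Every member is a gene of 1 coding exon, and no RefSeq gene overlaps any of them. On R64, CDC42 lies at chrXII:604212-604787, CDC24 at chrI:62840-65404, BEM1 at chrII:620872-622527 and RDI1 at chrIV:218680-219288. GIC2 lies at chrIV:1079048-1080199 and RSR1 at chrVII:794674-795492. The polarisome genes BNI1, SPA2, PEA2 and BUD6 lie at chrXIV:129522-135383, chrXII:100947-105347, chrV:466208-467470 and chrXII:769318-771684. CDC24, BEM1 and SPA2 are on the plus strand and the other members on the minus strand. Per kilobase of coding sequence (RPKM), the level in untreated WT of batches 1 and 2 was highest for GIC2 (387 ± 27.2, SD, n = 4), then CDC42 (183 ± 6.12) and RDI1 (132 ± 7.95). BNI1 followed at 65.1 ± 2.6, BEM1 at 52.4 ± 2.95, SPA2 at 49.4 ± 3.45 and CDC24 at 45.6 ± 3.76. PEA2 had 26.5 ± 4.77, BUD6 18.6 ± 1.19 and RSR1 9.32 ± 0.564. In this order the libraries of BEM1 and SPA2, of SPA2 and CDC24, and of PEA2 and BUD6 overlapped, and the other neighbours did not. After alpha-factor, RDI1 (395 ± 58.8 RPKM) stood above CDC42 (183 ± 6.77), and CDC24 (53.6 ± 5.49) and BNI1 (52.7 ± 2.01) overlapped. RSR1 had the fewest reads, 31 to 297 counts a library, and GIC2 the most, 1584 to 17680.

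The first comparison asked how alpha-factor changed these genes in WT. RDI1 rose 2.97-fold and GIC2 2.08-fold, RSR1 and CDC24 rose by smaller amounts, and BNI1, BEM1 and BUD6 fell. CDC42, SPA2 and PEA2 did not pass the test. Responses are given as edgeR's log2 ratio of treated to untreated libraries, and a gene was called where its Benjamini-Hochberg adjusted p over all features was under 0.05. Of the 10 members 7 were called, 4 higher and 3 lower, among 59.0% of the 6161 features tested (29.0% higher, 30.0% lower), so the share of members called was near the background. Scaling by library totals in place of TMM moved the median over all features by -0.17 and gave 1183 higher and 2523 lower features, so changes are relative to TMM.

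RDI1, the inhibitor that extracts Cdc42 from membranes, had 81.4, 86.8, 76.0 and 77.5 CPM in WT replicates 1 to 4 at 0 h and 282, 259, 217 and 206 CPM after alpha-factor. The groups did not overlap, and both treated libraries of batch 1 stood above both of batch 2. The response was 1.57 (SE 0.09, adjusted p 2.00e-13), with 1.68 in batch 1 alone and 1.46 in batch 2 alone. GIC2, the Cdc42 effector, had 447, 426, 421 and 490 CPM at 0 h and 971, 862, 910 and 952 CPM after alpha-factor. Every treated library stood above every untreated one. Its response was 1.05 (SE 0.12, adjusted p 4.97e-08), with 1.07 and 1.03 in batches 1 and 2.

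CDC24, the exchange factor of Cdc42, had 107, 112, 120 and 129 CPM at 0 h and 132, 120, 150 and 148 CPM after alpha-factor. The groups overlapped across batches, and within each batch the treated libraries were the higher ones. Its response was 0.23 (SE 0.06, adjusted p 0.00106), 0.20 (adjusted p 0.0796) in batch 1 and 0.26 in batch 2. RSR1, the bud-site GTPase, had 7.29, 7.46, 7.46 and 8.32 CPM at 0 h and 9.98, 12.1, 9.63 and 8.92 CPM after alpha-factor. These groups did not overlap, but the gap between them was under 1 CPM. The response of RSR1 was 0.39 (SE 0.12, adjusted p 0.00647), with 0.59 in batch 1 and 0.23 (adjusted p 0.25) in batch 2, and its call was lost without WT treated replicate 2 (0.31, adjusted p 0.0524). With library totals the responses of CDC24 (0.06, adjusted p 0.516) and RSR1 (0.22, adjusted p 0.138) were not called.

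BEM1, the scaffold of Cdc24, fell from 80.9, 86.3, 87.0 and 92.8 CPM to 68.1, 68.5, 72.9 and 72.6 CPM. No treated library reached an untreated one. The response was -0.30 (SE 0.07, adjusted p 0.000595), and it was -0.30 in batch 1 and -0.31 in batch 2. CDC42 itself had 108, 103, 109 and 102 CPM at 0 h and 102, 107, 102 and 110 CPM after alpha-factor. The groups overlapped throughout. The response of CDC42 was -0.00 (SE 0.10, adjusted p 0.991), with a 95% interval from -0.22 to 0.21.

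Among the polarisome genes, the formin BNI1 had 366, 390, 398 and 372 CPM at 0 h and 319, 298, 300 and 319 CPM after alpha-factor. The groups did not overlap. Its response was -0.31 (SE 0.07, adjusted p 0.00112), close to -0.30 and -0.32 in the single batches. BUD6, which assists Bni1, had 42.1, 48.2, 42.5 and 43.3 CPM and then 36.9, 35.6, 37.6 and 38.6 CPM, again without overlap. Its response was -0.24 (SE 0.07, adjusted p 0.00292), with -0.33 in batch 1 and -0.17 (adjusted p 0.0762) in batch 2. SPA2, the scaffold, had 198 to 234 CPM at 0 h and 191 to 204 CPM after alpha-factor. Its response of -0.14 (adjusted p 0.0588) missed the threshold, and it was called without WT 0 h replicate 1 (-0.19, adjusted p 0.0106), without WT treated replicate 3 (-0.17, adjusted p 0.0396), in batch 2 alone (-0.19, adjusted p 0.0323), with DESeq2 (-0.14, adjusted p 0.0424) and with library totals (-0.31, adjusted p 0.00139). PEA2 had 25.3 to 38.2 CPM and 34.9 to 41.7 CPM, with a response of 0.15 (adjusted p 0.15) that was called without WT treated replicate 4 (0.23, adjusted p 0.0389).

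**Figure D1:**
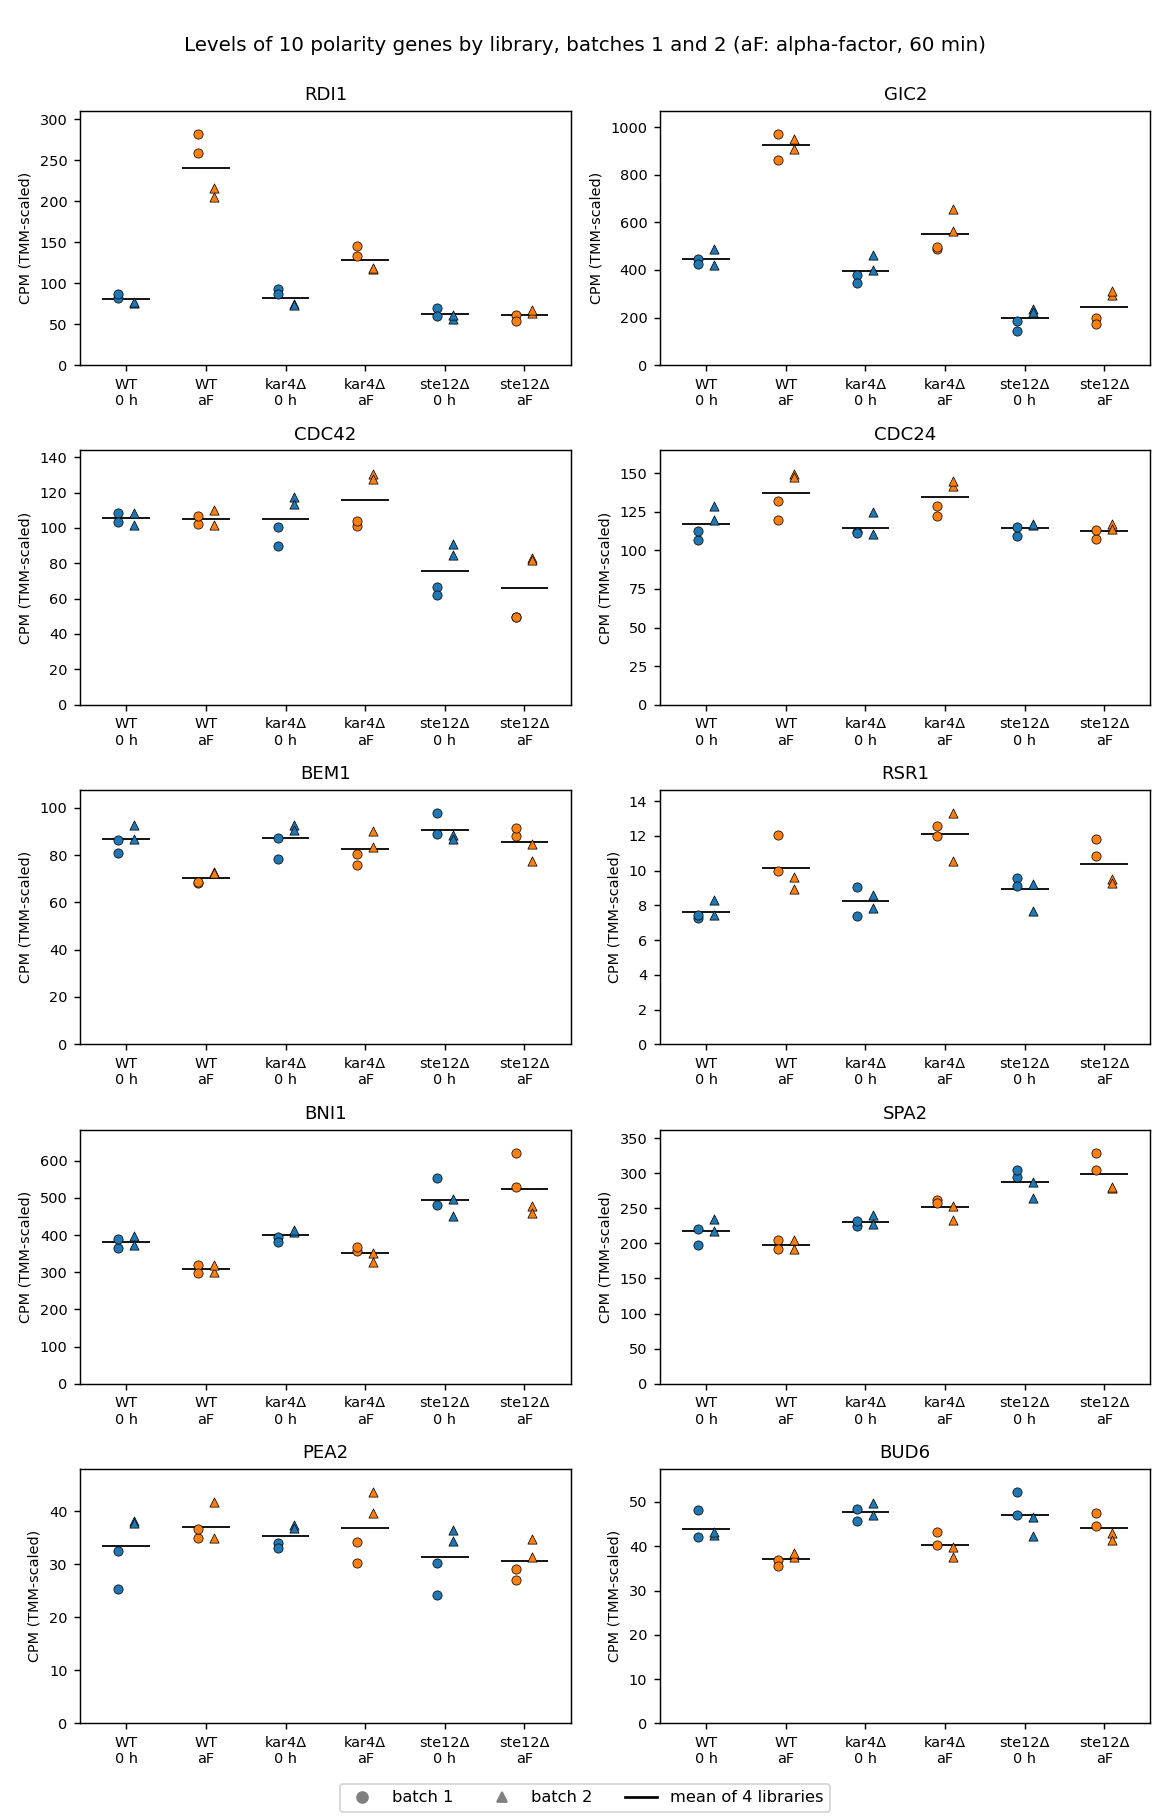
Levels in CPM on the TMM scale (y axis, from 0) of the 10 genes in each library of batches 1 and 2, by strain and treatment (x axis); blue is 0 h, orange after alpha-factor, circles are batch 1, triangles batch 2, and lines the means of 4 libraries. RDI1 and GIC2 after alpha-factor stand highest in WT, lower in kar4Δ and lowest in ste12Δ, and CDC42 in ste12Δ is lower in batch 1 than in batch 2.

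The next comparison asked how the response changed without KAR4. RDI1 and GIC2 still rose in kar4Δ, but by less than in WT, while CDC24, RSR1, BUD6 and BNI1 moved in the same direction as in WT. Of the 10 members 6 were called in kar4Δ, 4 higher and 2 lower, where 65.9% of features were called (33.0% higher, 32.8% lower, or 1329 and 2938 features with library totals). The response difference, kar4Δ minus WT, was called for 3 members, 1 higher (SPA2) and 2 lower (RDI1 and GIC2), where it was called for 18.9% of features (8.72% higher, 10.2% lower, or 334 and 685 features with library totals). Responses and their differences share the WT libraries.

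RDI1 in kar4Δ had 93.4, 86.2, 74.4 and 73.4 CPM at 0 h and 146, 134, 118 and 118 CPM after alpha-factor. The treated libraries stood above all untreated ones and below all 4 treated WT libraries. Its response in kar4Δ was 0.66 (SE 0.08, adjusted p 3.17e-07), and the difference from WT was -0.92 (SE 0.12, adjusted p 5.09e-06). The difference was -1.04 in batch 1 and -0.78 in batch 2. GIC2 had 379, 347, 463 and 399 CPM at 0 h and 487, 497, 655 and 565 CPM after alpha-factor, higher in batch 2 than in batch 1 at both times. Treated and untreated libraries did not overlap, nor did treated kar4Δ and treated WT libraries. Its response was 0.47 (SE 0.12, adjusted p 0.000955), or 0.24 (adjusted p 0.0544) with library totals. The difference of GIC2 from WT was -0.58 (SE 0.16, adjusted p 0.0126), with -0.63 in batch 1 and -0.52 in batch 2, and it was not called without a batch term (adjusted p 0.114).

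RSR1 rose from 7.38, 9.08, 8.62 and 7.87 CPM to 12.6, 11.96, 13.3 and 10.6 CPM in kar4Δ, without overlap. Its response was 0.53 (SE 0.11, adjusted p 0.000142), and the difference from WT, 0.15 (SE 0.16, adjusted p 0.631), did not pass the test. CDC24 had a response of 0.23 (SE 0.06, adjusted p 0.000758) and BUD6 one of -0.24 (SE 0.06, adjusted p 0.00189), and each fell short of the call in batch 1 alone. With library totals the response of CDC24 was 0.00 (adjusted p 0.994). BNI1 had a response of -0.19 (SE 0.07, adjusted p 0.0289), which lost its call in batch 1 alone (-0.10) and without kar4Δ 0 h replicate 3 (-0.16), 0 h replicate 4 (-0.15), treated replicate 1 (-0.18) or treated replicate 4 (-0.16).

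SPA2 had 225, 231, 240 and 227 CPM in kar4Δ at 0 h and 261, 258, 253 and 233 CPM after alpha-factor, so that the groups overlapped. Its response was 0.12 (adjusted p 0.0827) against -0.14 in WT, a difference of 0.26 (SE 0.09, adjusted p 0.038). The kar4Δ response of SPA2 was called with DESeq2 (0.14, adjusted p 0.033), with RLE scaling (0.14, adjusted p 0.0441), and without kar4Δ 0 h replicate 3 or treated replicate 4 (0.16 each). The difference was 0.26 in each batch alone but called in neither, it was not called without a batch term, without the filter or with library totals, and 11 of the 16 fits that each left out 1 library lost the call, with values between 0.21 and 0.31. BEM1 (0.22, adjusted p 0.107), CDC42 (0.14, adjusted p 0.58), BNI1 (0.12), PEA2 (-0.10), BUD6 (0.00) and CDC24 (0.00) had differences that did not pass, although that of BEM1 did in a fit of only the groups compared (0.23, adjusted p 0.0386). BEM1's difference between ste12Δ and WT (0.22, adjusted p 0.0727) was called without ste12Δ 0 h replicate 2 (0.26, adjusted p 0.033), without treated replicate 4 (0.26, adjusted p 0.0316) and with library totals (0.37, adjusted p 0.0259).

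Without STE12, RDI1 and GIC2 responded by less than in WT. GIC2 was the 1 member called in ste12Δ, where 32.2% of features were called (17.6% higher, 14.6% lower). The response difference, ste12Δ minus WT, was called for 4 members, 1 higher (BNI1) and 3 lower (RDI1, GIC2 and CDC24), where it was called for 35.9% of features (18.3% higher, 17.6% lower, or 1710 and 663 features with library totals). These counts lay below or near the background, and RDI1 and GIC2 had the largest differences among the members.

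RDI1 in ste12Δ had 70.0, 59.8, 56.5 and 61.2 CPM at 0 h and 61.6, 54.3, 63.8 and 67.3 CPM after alpha-factor, with full overlap. Its response was 0.00 (SE 0.09, 95% interval -0.17 to 0.18), and the difference from WT was -1.57 (SE 0.12, adjusted p 3.49e-10). In batch 1 the difference was -1.85 and in batch 2 it was -1.30. GIC2 had 188, 142, 235 and 222 CPM at 0 h and 200, 175, 296 and 313 CPM after alpha-factor. The libraries of the 2 conditions overlapped across batches, and the treated ones were the higher in batch 2 alone. Its response of 0.31 (SE 0.12, adjusted p 0.0434) was 0.17 (adjusted p 0.337) in batch 1 and 0.42 in batch 2, and it lost its call without 5 of the 8 libraries in turn (ste12Δ 0 h replicates 1, 2 and 4 and treated replicates 3 and 4), with values down to 0.21. The difference from WT was -0.74 (SE 0.16, adjusted p 0.000978), with -0.89 and -0.61 in batches 1 and 2.

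CDC24 had 110 to 117 CPM in ste12Δ at 0 h and 108 to 117 CPM after alpha-factor. Its response there was -0.02 and its difference from WT -0.25 (SE 0.08, adjusted p 0.0138), which was not called in batch 1 (-0.23) or batch 2 (-0.27) alone or with library totals (-0.10) or without a batch term (-0.25). BNI1 had 481, 553, 496 and 452 CPM at 0 h and 530, 621, 479 and 460 CPM after alpha-factor, with overlap. Its response was 0.07 (adjusted p 0.456), and the difference from WT was 0.38 (SE 0.10, adjusted p 0.00613), called in each batch alone (0.44 and 0.30). CDC42 had a response of -0.21 (adjusted p 0.113), which was -0.38 and called in batch 1 and -0.09 and not called in batch 2, and it was called in a fit of only the groups compared (-0.23, adjusted p 0.0301) and without ste12Δ treated replicate 3 (-0.30, adjusted p 0.042) or 4 (-0.29, adjusted p 0.0492).

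**Figure D2:**
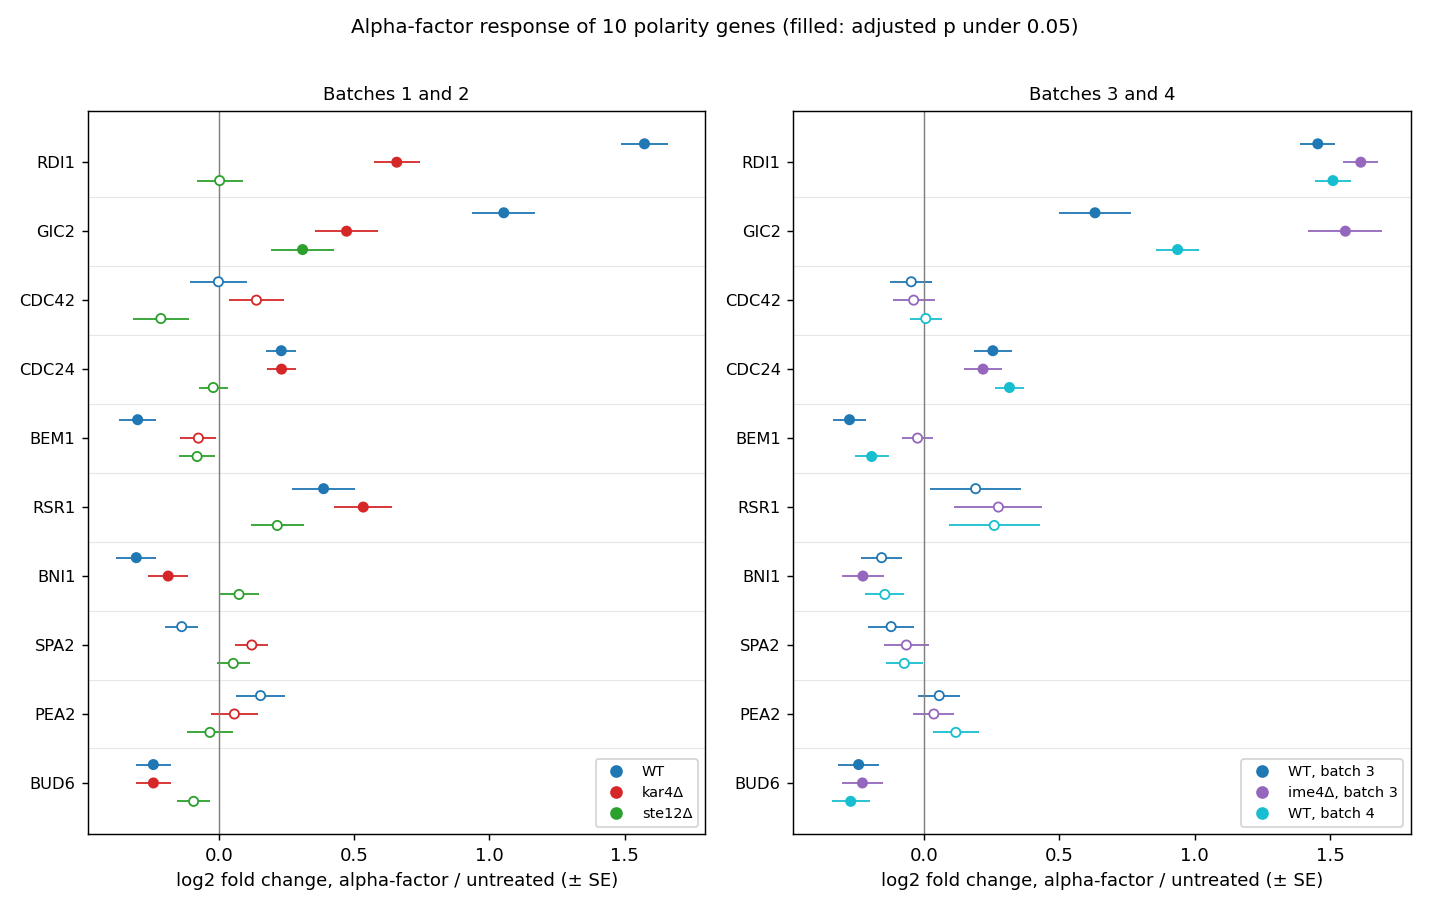
Log2 fold change of treated over untreated libraries with its SE (x axis) for each gene (y axis) in batches 1 and 2 (left) and in batches 3 and 4 (right); filled points have an adjusted p under 0.05. RDI1 runs from 1.57 in WT through 0.66 in kar4Δ to 0.00 in ste12Δ, and GIC2 is at 1.56 in ime4Δ against 0.63 in WT of batch 3.

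Strains were then compared directly at each time. In kar4Δ at 0 h none of the 10 members differed from WT in the edgeR test, also at an unadjusted p under 0.05 (0 members) and with DESeq2 (0 members), where 12.0% of features were called. GIC2 was the farthest from WT at -0.18 (adjusted p 0.347, 95% interval -0.42 to 0.06). In ste12Δ at 0 h, 5 members differed from WT, 2 higher and 3 lower, where 22.5% of features were called (10.6% higher, 11.9% lower, or 2366 and 296 features with library totals). GIC2 was lower by the widest margin, CDC42 and RDI1 were lower, and BNI1 and SPA2 were higher.

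GIC2 in ste12Δ at 0 h, given above by library, had 197 ± 41.6 CPM against 446 ± 31.3 CPM in WT (SD, n = 4). No library overlapped. The log2 difference was -1.20 (SE 0.12, adjusted p 4.92e-08), with -1.42 in batch 1 and -1.01 in batch 2. CDC42 had 66.5, 61.8, 84.4 and 90.7 CPM in ste12Δ at 0 h, all under the 0 h WT libraries of batches 1 and 2 (102 to 109 CPM). The batches stood apart, with the lower values in batch 1. The log2 difference was -0.49 (SE 0.10, adjusted p 0.00157), with -0.73 in batch 1 and -0.27 in batch 2. RDI1 differed by -0.38 (SE 0.09, adjusted p 0.00263), -0.39 and -0.40 in the single batches, and its call was lost with library totals (-0.19, adjusted p 0.0956). BNI1 had 495.5 ± 42.4 CPM against 382 ± 15.2 in WT, a log2 difference of 0.37 (SE 0.07, adjusted p 0.000765). SPA2 had 294, 304, 287 and 264 CPM, above every WT library, and its log2 difference was 0.40 (SE 0.06, adjusted p 4.26e-05).

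After alpha-factor, 4 members differed between kar4Δ and WT, 2 higher and 2 lower, where 37.9% of features were called (16.8% higher, 21.1% lower, or 705 and 1496 features with library totals). RDI1 was lower by 0.90 on the log2 scale (-0.90, SE 0.08, adjusted p 8.64e-09) and GIC2 by 0.76 (-0.76, SE 0.12, adjusted p 1.40e-05). In single batches RDI1 was at -0.95 and -0.84 and GIC2 at -0.90 and -0.61. SPA2 was higher (0.34, SE 0.06, adjusted p 0.000105), with no overlap between 233 to 261 CPM in kar4Δ and 191 to 204 CPM in WT. BEM1 was higher by 0.23 (SE 0.07, adjusted p 0.011), but not in batch 1 alone (0.19, adjusted p 0.151), without kar4Δ treated replicate 4 (0.19, adjusted p 0.052) or with library totals (0.18, adjusted p 0.14). CDC42 differed in the batches: 101 and 104 CPM in batch 1 and 131 and 128 CPM in batch 2 of treated kar4Δ, with log2 differences of -0.03 and 0.29, the second of them called. BNI1 (0.18, adjusted p 0.0527) was called with DESeq2 (0.19, adjusted p 0.0336) and with RLE scaling (0.19, adjusted p 0.0443). BNI1 was also called in a fit of only the groups compared (0.22, adjusted p 0.00662) and without kar4Δ or WT treated replicate 4 (0.21 and 0.22). RSR1 (0.25, adjusted p 0.0871) was called without WT treated replicate 2 (0.33).

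In ste12Δ after alpha-factor, 9 members differed from WT, 4 higher and 5 lower, where 59.1% of features were called (30.9% higher, 28.2% lower, or 3650 and 774 features with library totals). RDI1 (-1.95, SE 0.09, adjusted p 2.87e-15) and GIC2 (-1.95, SE 0.12, adjusted p 1.69e-12) were lower by the same amount. RDI1 was at -2.24 in batch 1 and -1.70 in batch 2, and GIC2 at -2.31 and -1.62. CDC42 had 49.9, 49.7, 83.0 and 81.7 CPM, below every treated WT library of batches 1 and 2 (102 to 110 CPM). The batch 1 libraries were the lowest values of CDC42 in the series. Its log2 difference was -0.70 (SE 0.10, adjusted p 4.29e-06), with -1.09 in batch 1 and -0.37 in batch 2. PEA2 had 29.1, 27.0, 34.8 and 31.3 CPM in treated ste12Δ and 34.9, 36.6, 41.7 and 35.0 CPM in treated WT, which did not overlap. CDC24 (-0.28, adjusted p 0.000129) and PEA2 (-0.28, adjusted p 0.00838) were lower by the same amount, and PEA2 was not called in batch 2 alone (-0.23, adjusted p 0.0599) or without a batch term. Library totals moved the median over all features by 0.33 here, and CDC24 and PEA2 then stood at 0.05 each and were not called, while RSR1 was called higher (0.35). BNI1 (0.75, SE 0.07, adjusted p 8.54e-09) and SPA2 (0.59, SE 0.06, adjusted p 2.06e-08) were higher in every library than any WT library. BEM1 (0.28, adjusted p 0.00105) and BUD6 (0.24, adjusted p 0.00225) were higher, though not in batch 2 alone (0.15 and 0.14). Their libraries, 77.7 to 91.5 CPM for BEM1 and 41.3 to 47.5 CPM for BUD6, stood above all treated WT libraries of batches 1 and 2. RSR1 was the 1 member that did not pass (0.03, adjusted p 0.866).

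**Figure D3:**
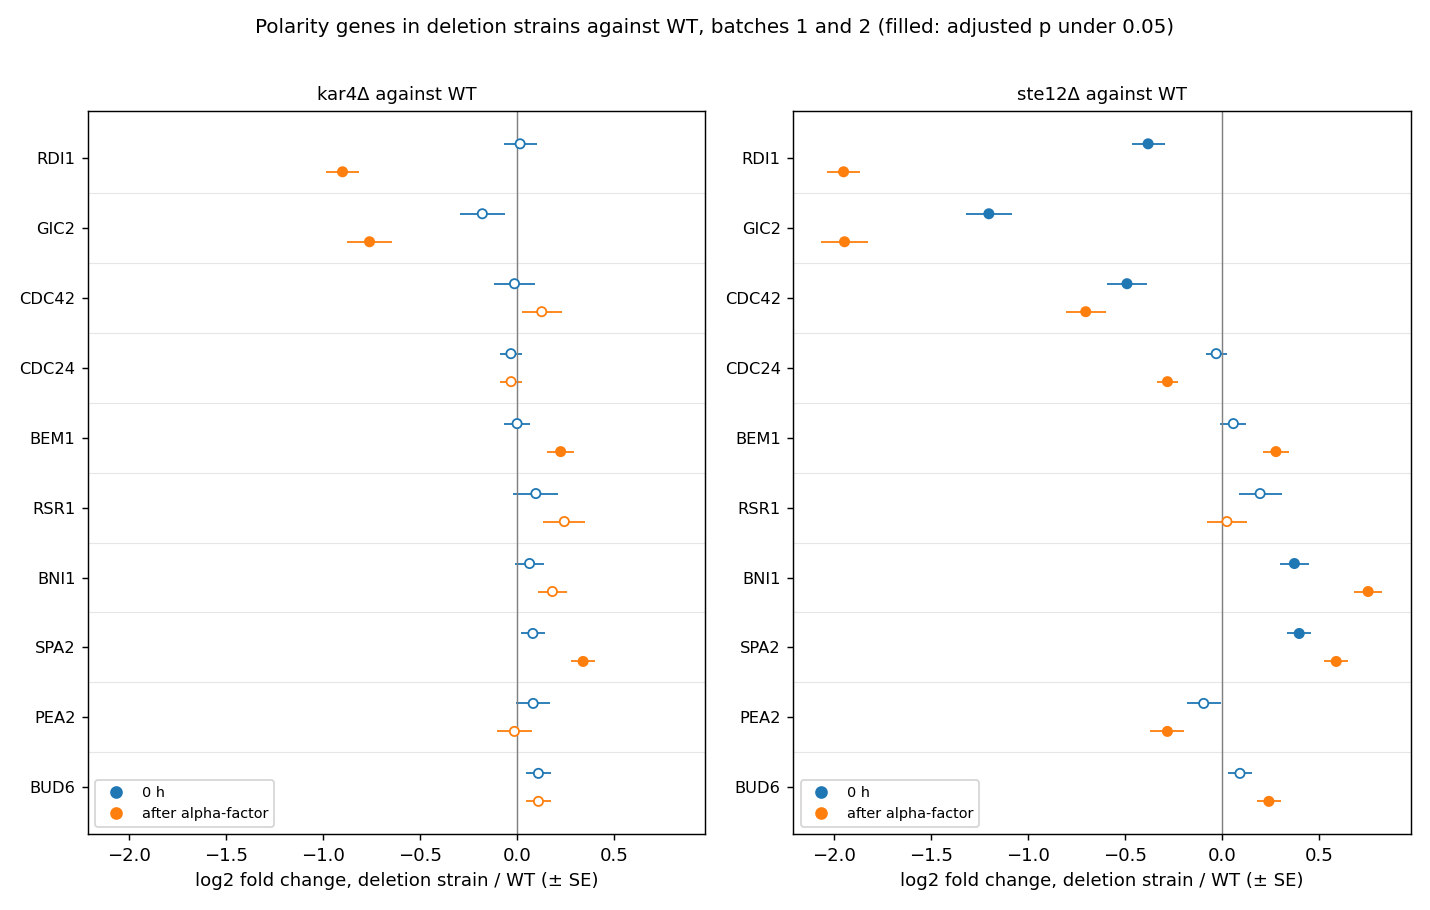
Log2 fold change of kar4Δ (left) or ste12Δ (right) over WT with its SE (x axis) for each gene (y axis), at 0 h and after alpha-factor; filled points have an adjusted p under 0.05. In ste12Δ after alpha-factor RDI1 and GIC2 sit at -1.95 and CDC42 at -0.70, while BNI1 and SPA2 sit at 0.75 and 0.59.

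Batch 3 asked whether IME4 changed the response. Its columns agreed in pairs within sampling noise, so each pair was averaged and counted as 1 library. In WT of that batch 5 members were called, 3 higher (RDI1, GIC2 and CDC24) and 2 lower (BEM1 and BUD6), where 55.1% of features were called (27.4% higher, 27.7% lower, or 1125 and 2207 features with library totals). In ime4Δ 5 were called as well, 3 higher (RDI1, GIC2 and CDC24) and 2 lower (BNI1 and BUD6), where 55.5% of features were called (27.6% higher, 27.9% lower, or 948 and 2929 features with library totals). RDI1 went from 72.0 and 71.2 CPM to 198 and 192 CPM in WT, and from 62.5 and 66.4 CPM to 194 and 198 CPM in ime4Δ. Treated libraries of the 2 strains overlapped. Its responses were 1.45 (SE 0.07) in WT and 1.61 (SE 0.07) in ime4Δ. The calls of CDC24 (0.25 in WT, 0.22 in ime4Δ), BUD6 (-0.24 and -0.23) and BNI1 (-0.23 in ime4Δ) each fell in some of the 4 fits that left out 1 library: CDC24 without WT treated replicate 2, ime4Δ treated replicates 1 and 2 or untreated replicate 1, and BUD6 without WT treated replicates 1 and 2 or untreated replicate 2. BUD6 also lost its call without ime4Δ treated replicate 1 or untreated replicates 1 and 2, and BNI1 without any of the 4 ime4Δ libraries. With library totals CDC24 had 0.10 in WT (adjusted p 0.39) and -0.06 in ime4Δ (adjusted p 0.566). DESeq2 did not call BUD6 in WT (adjusted p 0.12) or BUD6, BNI1 and CDC24 in ime4Δ (adjusted p 0.156, 0.0562 and 0.0819).

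GIC2 had 602 and 520 CPM in untreated WT and 933 and 798 CPM in treated WT, against 562 and 449 CPM and 1452 and 1497 CPM in ime4Δ. The untreated libraries of the strains overlapped, and the treated ones did not. The response was 0.63 (SE 0.13, adjusted p 0.00351) in WT and 1.56 (SE 0.14, adjusted p 1.91e-05) in ime4Δ. The difference of responses was 0.93 (SE 0.19, unadjusted edgeR p 0.000891), but its adjusted p was 0.496, and the direct difference after alpha-factor was 0.77 (SE 0.13) with an adjusted p of 0.0846. DESeq2 called both (0.93, adjusted p 0.000815, and 0.77), and library totals brought the second to 0.78 (adjusted p 0.0249). Without 1 library in turn the difference of responses lay between 0.78 and 1.08 and was not called. BEM1 had 91.3 and 88.2 CPM, then 73.5 and 73.9 CPM in WT, and 93.3 and 91.6 CPM, then 89.9 and 90.5 CPM in ime4Δ. The response differed by 0.25 (unadjusted p 0.0149, adjusted p 0.615). edgeR called 0 members in the response difference (2 at an unadjusted p under 0.05, 1 with DESeq2), where it called 0.0162% of 6156 features. It called 0 members between untreated strains (1 unadjusted, 0 with DESeq2; 0.0325% of features) and 0 between treated strains (2 unadjusted, 1 with DESeq2; 0.227% of features). The other members had response differences between -0.07 (BNI1) and 0.16 (RDI1).

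Batch 4 set treated WT against cells that had also waited 60 min. Here 5 members were called, 3 higher and 2 lower, where 57.8% of 6272 features were called (28.9% higher, 28.9% lower, or 1387 and 2369 features with library totals). RDI1 rose from 73.0 and 80.7 CPM to 223 and 213 CPM, and GIC2 from 410 and 426 CPM to 813 and 779 CPM. Neither overlapped. RDI1 responded by 1.51 (SE 0.07, adjusted p 7.05e-07), GIC2 by 0.94 (SE 0.08, adjusted p 2.70e-05) and CDC24 by 0.32 (SE 0.05, adjusted p 0.00145). BUD6 (-0.27) and BEM1 (-0.19) were lower, and both lost their calls without either treated library (-0.29 and -0.25 for BUD6, -0.18 and -0.21 for BEM1). DESeq2 did not call BEM1 either (-0.19, adjusted p 0.0784). PEA2 (0.12) and RSR1 (0.26) were called only without untreated replicate 2, at 0.23 and 0.48. The WT response of batch 4 minus that of batches 1 and 2 was called for 0 members (0 unadjusted, 0 with DESeq2), where 16.5% of 6270 features were called. This difference was -0.07 for RDI1 (SE 0.13) and -0.12 for GIC2 (SE 0.19). Batch and kind of untreated control changed together in this difference, so their effects cannot be told apart.

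**Figure D4:**
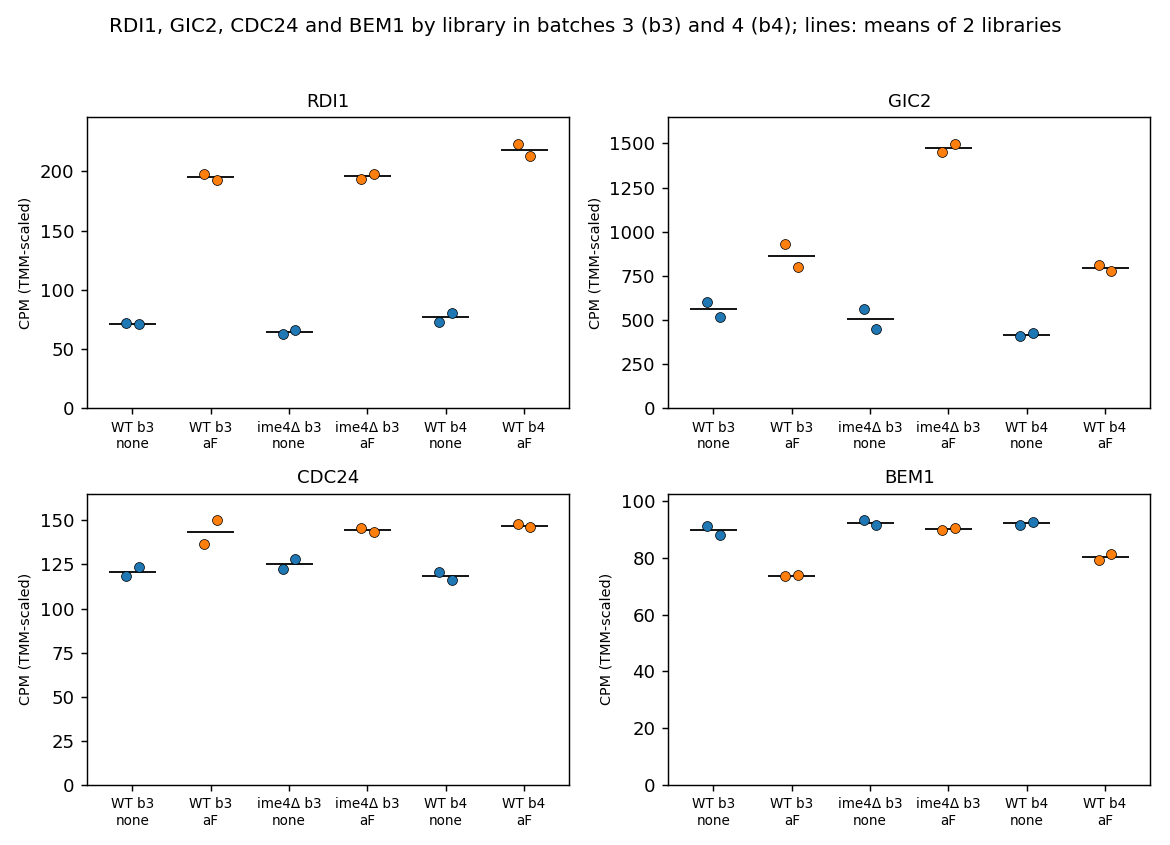
Levels in CPM on the TMM scale (y axis, from 0) of RDI1, GIC2, CDC24 and BEM1 in each library of batches 3 and 4 (x axis: strain, batch and treatment); blue is untreated, orange treated, and lines are means of 2 libraries. The treated ime4Δ libraries of GIC2, 1452 and 1497 CPM, stand above the treated WT libraries, 933 and 798 CPM.

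Over the 24 libraries of batches 1 and 2, the 3 genes whose log2 CPM, less each batch's mean, followed RDI1 most closely among 5868 features were PCL2 (Pearson r 0.986), RVS161 (0.984) and PRM8 (0.982). The 24 libraries share 6 groups, so r largely reflects the group means. PCL2 had a WT response of 3.61, a kar4Δ response of 2.00 and a ste12Δ response of -0.13. RVS161 had 1.37, 0.71 and -0.20, and PRM8 3.27, 2.03 and -0.22, where RDI1 had 1.57, 0.66 and 0.00.

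Another 65 genes of polarized growth, in 9 lists, give the setting. The lists were chosen with earlier results of these data known, so their counts are descriptions and not tests of polarity genes as a set. All 65 were tested, and 29 were called higher and 11 lower in the WT response, with a median of 0.16 against -0.00 over all features, of which 29.0% were called higher and 30.0% lower. In kar4Δ 39 were higher and 6 lower (median 0.37), where 33.0% and 32.8% of all features were. In ste12Δ 12 were higher and 10 lower (median -0.04), close to the 17.6% and 14.6% of all features. The response difference was called higher for 21 and lower for 4 in kar4Δ (8.72% and 10.2% of all features), and higher for 4 and lower for 26 in ste12Δ (18.3% and 17.6% of all features). Over all features, library totals turned the split of the ste12Δ differences to 1710 higher and 663 lower, as given above. The WT and deletion responses again share libraries.

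The counts for each list below are of the WT response and stand against the same 29.0% higher and 30.0% lower over all features. They too are descriptions, because the lists were chosen with earlier results of these data known. Of the 12 genes that link pheromone to polarity, 9 were called higher and 0 lower (median 0.84). The fusion genes FUS2 and FUS1 rose by 4.23 (SE 0.15) and 2.89 (SE 0.14). FUS2 had the largest called response difference of the list, -4.09 (SE 0.22, adjusted p 8.16e-13) in ste12Δ. Among the 7 other Cdc42 regulators, the GTPase-activating protein gene RGA1 was the 1 called in WT (0.48, SE 0.06), and its response was smaller in ste12Δ by 0.39 (-0.39, adjusted p 0.0013). Among the 7 effectors and scaffolds 3 were higher and 2 lower, near the background. The kinase gene SKM1 rose by 1.12 (SE 0.10) and BOI1, whose product binds Bem1, by 0.43 (SE 0.06). CLA4, a p21-activated kinase that binds Cdc42, was slightly lower in WT (-0.20, adjusted p 0.0357), and its response was higher in kar4Δ by 1.20 (SE 0.11, adjusted p 3.80e-08).

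All 3 polarisome partners on the list were called higher in WT, where 29.0% of all features were. The Rab GTPase-activating protein genes MSB4 and MSB3 rose by 1.55 (SE 0.14) and 0.78 (SE 0.07), and the MSB4 response was smaller in ste12Δ (-1.06, adjusted p 0.00011). Of the 10 actin genes 4 were higher and 0 lower, against 29.0% and 30.0% of all features, with the fimbrin gene SAC6 at 0.77 (SE 0.06) and the actin-binding protein gene ABP1 at 0.57 (SE 0.06). AIP1, a cofactor of cofilin, responded by 0.48 in WT and by 1.31 more in kar4Δ (SE 0.10, adjusted p 2.82e-09).

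Of the 10 exocyst and vesicle GTPase genes 1 was higher and 5 lower in WT, against 29.0% and 30.0% of all features. SEC2, the exchange factor of the vesicle Rab, rose by 0.91 (SE 0.07), and its response was smaller in ste12Δ (-1.01, adjusted p 6.75e-09). SEC3, the exocyst subunit that marks the cortex, had -0.32 (SE 0.07). Of the 5 septins 3 were higher and 1 lower, against 29.0% and 30.0% of all features, with SHS1 at -0.27 (SE 0.06), CDC11 at 0.23 (SE 0.08) and CDC3 responding by 0.39 more in kar4Δ (adjusted p 0.000779). Of the 6 bud-site landmark genes 2 were higher and 2 lower, near the background. BUD8, of the distal pole, rose by 0.85 (SE 0.11), while BUD9, of the proximal pole, fell by 0.65 (SE 0.10). RAX2, which helps localize them, responded by 0.84 more in ste12Δ (SE 0.08, adjusted p 2.11e-08).

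**Figure D5:**
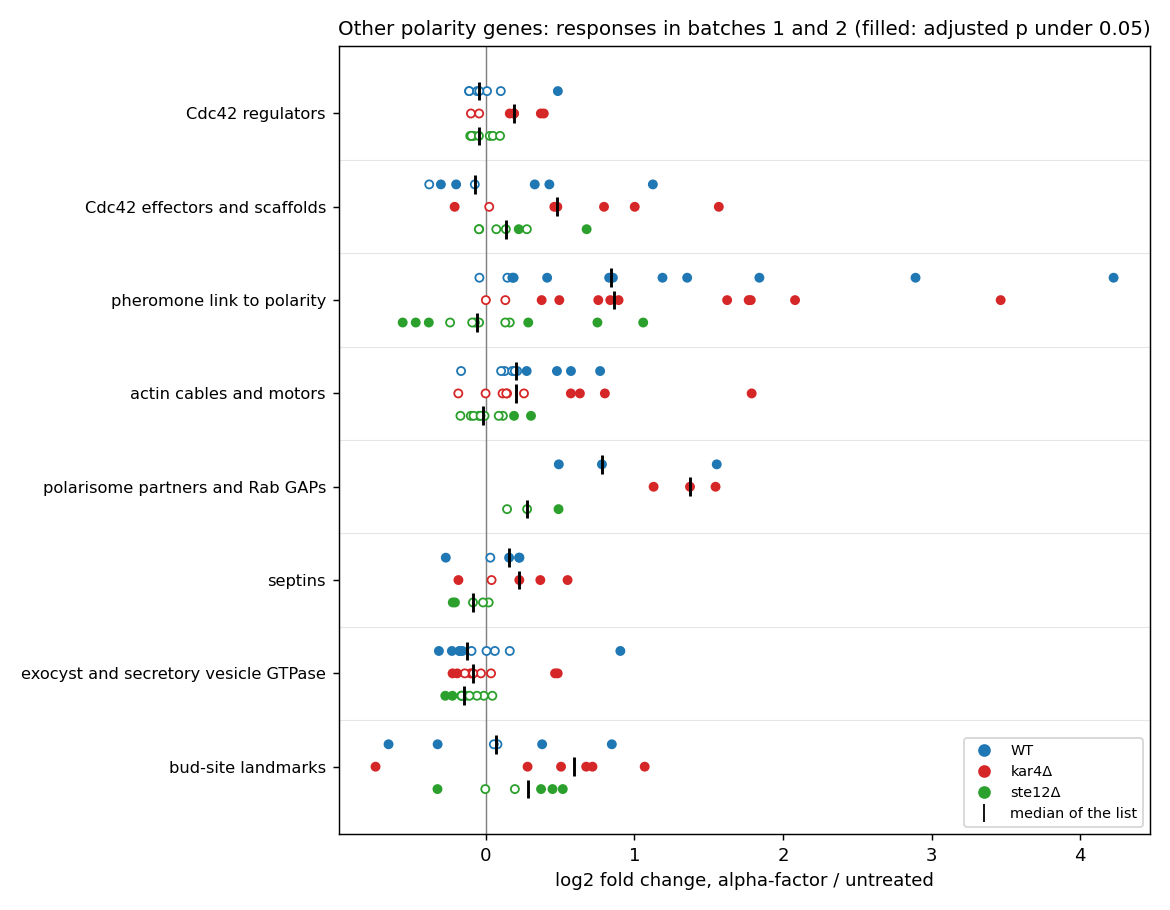
Log2 fold change of treated over untreated libraries of batches 1 and 2 (x axis) for the other polarity genes of the lists described above (y axis) in WT, kar4Δ and ste12Δ; each point is a gene, filled where the adjusted p is under 0.05, and black ticks are list medians. The pheromone link list reaches 4.23 (FUS2) in WT, and its median of 0.84 there compares with -0.06 in ste12Δ.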

How the data were processed

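RNA-seq libraries of 44 columns and 7127 features were used as the authors' deposited expected counts, that is, unscaled estimated counts per gene of which 24.5% are whole. STAR, featureCounts and the sacCer3 build are named per the submitters' processing notes, and versions and the use of strand in counting are not given in the sources used here. Libraries came from a stranded kit with rRNA removal and 50-nt reads, per the labels' protocols. Batch 1 libraries totalled 4.25 M to 15.6 M counts, those of batch 2 8.27 M to 12.7 M, those of batch 3 9.9 M to 17 M and those of batch 4 14.8 M to 22.6 M.

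In batch 3, 8 pairs of columns agreed within sampling noise (chi-square per degree of freedom 0.444 to 0.701, at least 5.29 in other pairs), so each pair was averaged and counted as 1 library, leaving 36. Expected counts were rounded and analysed with edgeR 4.0.16 (R 4.3.3, limma 3.58.1): filterByExpr (minimum count 10, minimum total 15), TMM scaling, glmQLFit and glmQLFTest, Benjamini-Hochberg adjustment over all features tested, and a threshold of 0.05. A fit with a batch term held the 24 libraries of batches 1 and 2, batches 3 and 4 had a fit each, and all 36 together for batch 4 against batches 1 and 2. CPM and RPKM (per kb of coding length) are on 1 TMM scale over 36 libraries. Gene names came from R64, which 6047 identifiers matched; no member overlaps another RefSeq gene. The fits were tested on simulated data. Alternatives were DESeq2 1.42.0, RLE scaling, library totals, no filter, no batch term, single batches, only the groups compared, replicate blocks, other treatments of the column pairs, and each library left out.

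The members and lists were chosen with earlier results of these data known. All members are named. From each list the text names up to 2 genes with the largest called WT response and the 1 with the largest called response difference. Among the lists, 1 is part of the counts over all 65 other polarity genes but is not reported here.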

Additional observations from a re-analysis of the deposited data

Results flagged for a closer look

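Among 60 sets of 4 libraries (10 genes in 6 groups), 2 had 1 library far from the other 3, where chance gives about 1 in 20. CDC24 in kar4Δ at 0 h had 124.7 CPM in replicate 3 and 110.6 to 111.9 CPM in the others. RSR1 in WT at 0 h had 8.316 CPM in replicate 4 and 7.29 to 7.46 CPM in the others.

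The alpha-factor response differed between kar4Δ and WT, by the edgeR test of the difference, for RDI1 (-0.9153), GIC2 (-0.5814) and SPA2 (0.259). Between ste12Δ and WT it differed for RDI1 (-1.57), GIC2 (-0.744), CDC24 (-0.2515) and BNI1 (0.38).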

How the results depend on the processing

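Over 16 comparisons, 2580 values of single members were recomputed under alternatives. Of these, 2440 stayed on the same side of the threshold, 76 lost a call, 60 gained one and 4 turned direction with a call in either fit. A change of sign where neither fit called the member was counted among the 2440. An example is RDI1 in the ste12Δ response, at 0.00 in the main fit and -0.18 in batch 1 alone. All 4 turned with library totals: PEA2 (0.0459) and CDC24 (0.0518) in ste12Δ against WT after alpha-factor, and PEA2 (-0.2449) and CDC24 (-0.0636) in the ime4Δ response; the cause was not tested beyond the shift of all features given with the results. Members not called with TMM were called with library totals in the kar4Δ response (BEM1) and the ste12Δ minus WT response difference (SPA2, BUD6 and BEM1). The same held in ste12Δ against WT at 0 h (BUD6, BEM1 and RSR1) and in the WT responses of batches 3 and 4 (BNI1 and SPA2 in both). In the ime4Δ response library totals called SPA2 (-0.35), PEA2 (-0.24), CDC42 (-0.32) and BEM1 (-0.30), which TMM did not. Counts of members called that moved by over 1.5 times were as follows, beside the main count. The kar4Δ response gave 3 in batch 1 alone (main 6), and its difference from WT gave 1 with no batch term (main 3). The ste12Δ response (main 1) gave 0 with library totals or no batch term and 2 with only the groups compared. The ime4Δ response (main 5) gave 2 with DESeq2 and 8 with library totals. The ime4Δ minus WT response difference (main 0) gave 1 with DESeq2 and 3 with columns as separate replicates, which counts each library 2 times. Untreated ime4Δ against WT (main 0) gave 1 with separate columns. Treated ime4Δ against WT (main 0) gave 1 with DESeq2, 2 with separate columns and 1 with library totals. With 1 library left out, counts ran from 0 to 1 for the ste12Δ response, 3 to 6 for WT of batch 3, 2 to 3 for the ime4Δ response and 3 to 7 for batch 4.

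Same-numbered libraries deviated together in most pairs of groups but not in all. Correlations of their deviations ran from 0.221 to 0.515 in batch 1 (15 of 15 pairs of groups over 0.1). They ran from -0.469 to 0.501 in batch 2 (10 of 15), from -0.344 to 0.513 in batch 3 (3 of 6) and were 0.335 in batch 4. In batch 2 every negative value (-0.469 to -0.127) involved treated kar4Δ, and the other pairs ran from 0.102 to 0.501. In batch 3 every negative value (-0.344 to -0.108) involved treated ime4Δ, and the other pairs ran from 0.234 to 0.513. The main fits did not treat the numbers as pairs. With a replicate block, the ste12Δ response called 2 members (block by culture) and treated ime4Δ against WT called 1; no other count of members moved by over 1.5 times under a block. The block by culture called CDC42 in the ste12Δ response (-0.22, adjusted p 0.0134), and BEM1 in the response differences of kar4Δ (0.22, adjusted p 0.0321) and ste12Δ (0.22, adjusted p 0.0193) from WT. RSR1 had the fewest counts of the members, as few as 31 in a library. With 2 libraries a group, batches 3 and 4 rest on few residual degrees of freedom.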
